A study of Mus musculus with 6 samples.

Results

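Transforming growth factor beta (TGF-beta), bone morphogenetic protein (BMP) and activin signalling genes were examined in hippocampal poly(A) RNA of ovariectomised mice. The set was chosen by gene symbol among protein-coding rows of the deposited count table: symbols beginning with Bmp and a digit or an r, Gdf and a digit, Inhb, Tgfbr or Acvr, together with Inha, Tgfb1 to Tgfb3 and the numbered Smad genes. This gave 49 genes of 32067 rows in the table, of which 18110 were protein-coding. All animals were wild-type female C57BL/6J mice whose ovaries had been removed at 8 weeks of age and whose hippocampus was taken at 17 weeks. From surgery until that age, the 3 OVX+RJ mice ate a diet with 1% royal jelly, the food that honeybees secrete for their larvae. The 3 OVX mice ate the control diet over the same period. A sham-operated group was not analysed here, so values relative to mice with ovaries cannot be given. The comparison asks whether the royal jelly diet altered these genes in hippocampus after the loss of ovarian hormones.

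Ligands of this superfamily are secreted dimers that bring together type I and type II receptor kinases at the cell surface. The type I receptor then phosphorylates receptor Smad proteins, with Smad1, Smad5 and Smad9 serving mainly BMPs and Smad2 and Smad3 serving TGF-beta and activins. Phosphorylated Smads join Smad4 and enter the nucleus, while Smad6 and Smad7 dampen the signal. In hippocampus, BMP signalling is known for restraining the division of neural stem cells, activin A for acting on excitatory synapses, and TGF-beta for maintaining microglia.

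Libraries held between 34718597 and 58163785 counts, so 1 count was worth 0.0172 to 0.0288 CPM, the usual depth-scaled read count, here taken over all rows of the table. The 49 genes took 0.111% to 0.121% of the counts of a library. The mean Pearson correlation of log2 CPM with the remaining libraries was 0.983 for OVX+RJ 1 and 0.986 to 0.987 for each of the 5 others, taken across genes, which are not independent replicates. OVX+RJ 1 was also the lowest of the 6 libraries at 29.0% of the genes tested. Among the 40 tested members it was lowest at 8 and highest at 9. These 17 extremes were the most of any library, against 7 to 15 in each of the others. OVX 1 and OVX 2 were each lowest at 9 members. Neuronal markers summed to 5400 to 5770 CPM in OVX+RJ and 5240 to 5520 CPM in OVX. Dentate granule cell markers summed to 248 to 390 CPM in OVX+RJ, against 300 to 409 CPM in OVX. All these markers had values above 0 in every library. The log2 fold change of OVX+RJ over OVX was above 0 at 5 of 5 neuronal markers, from 0.005 for Slc17a7 to 0.109 for Snap25. It was below 0 at 6 of 6 granule cell markers, from -0.541 for Lct to -0.045 for Prox1. The groups overlapped at all 6. The unadjusted p of the edgeR test was under 0.05 at 2 of them (33.3%), Lct and Il16, beside 4.05% of all genes tested. In bulk tissue, fewer cells of a type and less RNA per cell cannot be told apart.

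No member passed the test between the diets. Of the 49 genes, 40 passed the filter on low counts and were tested by edgeR's quasi-likelihood test within the fit of 18629 genes. None of the 40 passed a Benjamini-Hochberg adjusted p of 0.05, where 0% of all genes tested did, and their adjusted p ran from 0.986 to 0.998. Fold changes below are from edgeR, and standard errors (SE) and 95% intervals from limma on log2 CPM. None reached an unadjusted p of 0.05 either, where 4.05% of all genes tested did. The groups did not overlap at 1 of the 40, Smad9, which is 2.50% of the members against 10.5% of all genes tested. Log2 fold changes of OVX+RJ over OVX ran from -0.35 for Bmp6 to 0.23 for Inhbb, with a median of 0.041 beside -0.0015 over all genes tested. They were above 0 at 27 of the 40 members, beside 49.6% of all genes tested. With a library left out, 22 to 30 of the 40 to 42 members then tested were above 0.

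The intervals show what size of difference these libraries could still hold. The 95% interval of the fold change lay within 1.25-fold either way for 11 members, within 1.5-fold for 29 and within 2-fold for 37. The exceptions beyond 2-fold were Bmp8b, Gdf9 and Smad6, which had few counts. The narrowest interval was that of Acvr1b, the main activin type I receptor gene, at -0.13 to 0.15 on the log2 scale. All 40 intervals included 0, and that of Smad9 came nearest to leaving it out, at -0.001 to 0.45.

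**Figure D1:**
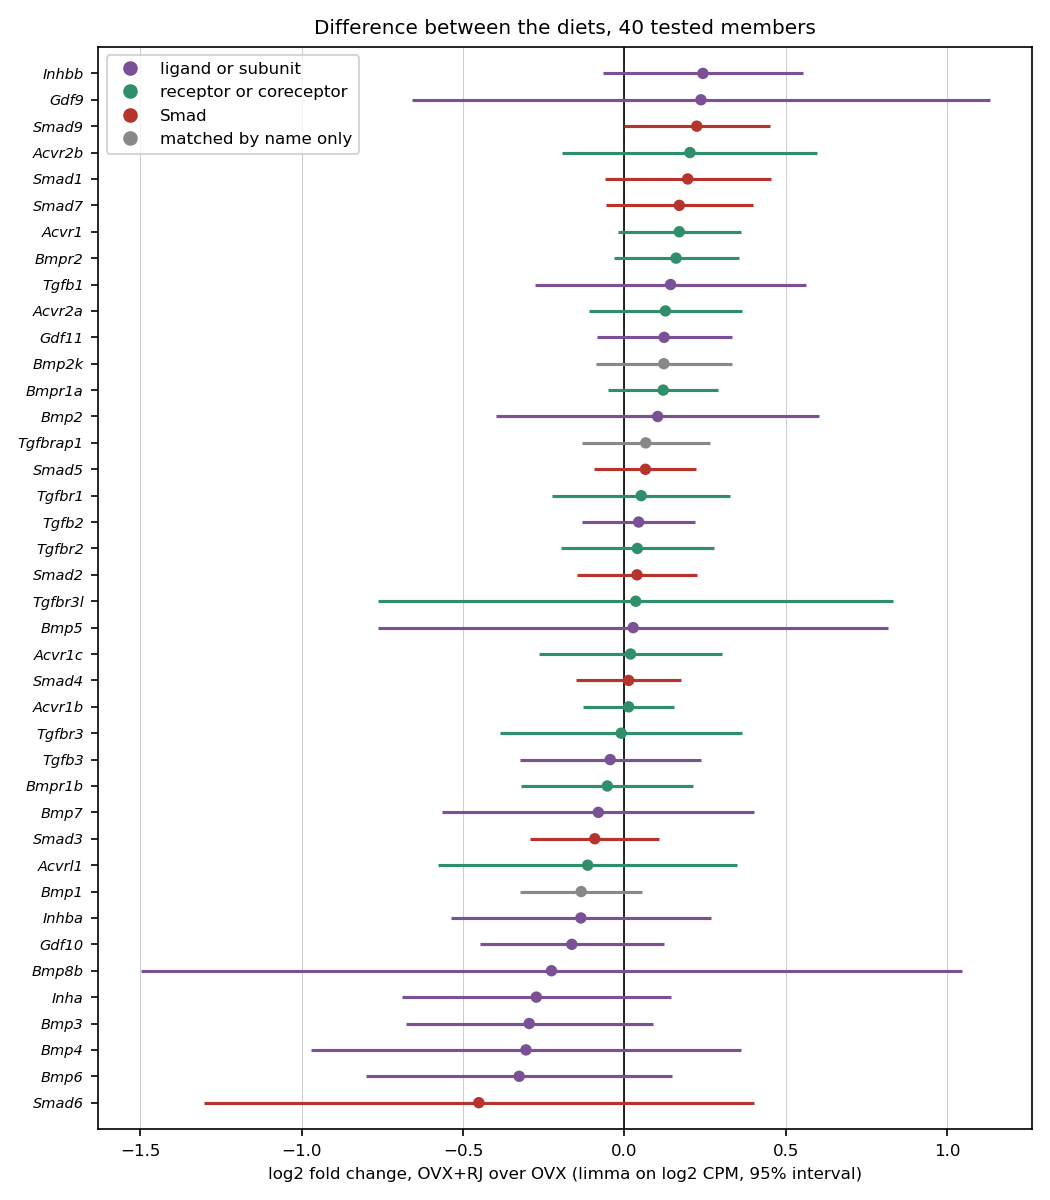
Log2 fold change of OVX+RJ over OVX (x axis; point, limma estimate on log2 CPM; line, 95% interval; n = 3 libraries per group) for the 40 tested members, coloured by role and ordered by estimate. Every line crosses 0; those of Acvr1b, Smad4 and Smad5 are short, and those of Bmp8b, Smad6 and Gdf9 are long.

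Levels were compared between genes only per kilobase of exon. Acvr1b was highest at 30.2 CPM per kb, above 86.8% of tested protein-coding genes, whose median was 6.37 CPM per kb. Bmpr2, the BMP type II receptor, followed at 15.9, Smad3 at 15.1 and Smad4 at 13.2 CPM per kb. Among ligands Tgfb2 led at 12.3 CPM per kb, ahead of Gdf11 at 6.49, the inhibin alpha gene Inha at 6.07 and Tgfb3 at 3.00 CPM per kb. BMP ligands were low, from 1.30 CPM per kb for Bmp6 down to 0.00925 for Bmp8a. The exon lengths come from an annotation on another genome build, so small differences in this order carry no weight.

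**Figure D2:**
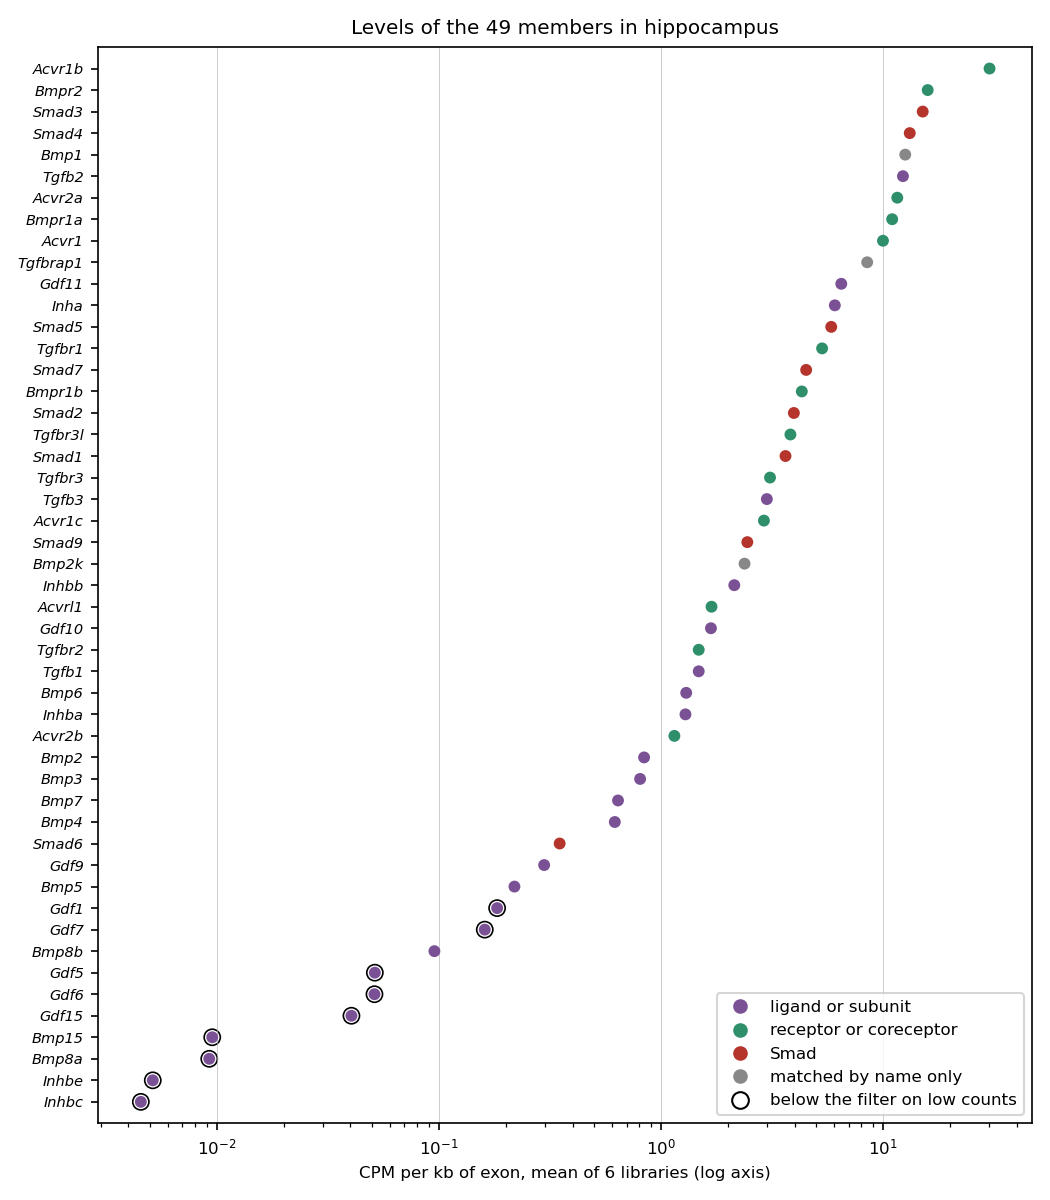
Mean level of each of the 49 members over the 6 libraries, in CPM per kb of exon on a log axis, coloured by role; open black rings mark the 9 genes below the filter on low counts. Acvr1b is highest at 30.2; BMP ligands lie at 1.30 or below, while Tgfb2, Gdf11 and Inha lie among the receptors and Smads.

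TGF-beta ligands overlapped between the diets. Tgfb2, the isoform with the most counts here, had 67.6, 67.8 and 59.4 CPM in OVX+RJ 1, 2 and 3, against 60.1, 66.5 and 63.7 CPM in OVX 1, 2 and 3. The lowest value of all was in an OVX+RJ library, and the log2 fold change was 0.046 (SE 0.080, 95% interval -0.13 to 0.22). Tgfb3 had 9.20, 10.7 and 9.92 CPM in OVX+RJ, against 10.6, 11.3 and 9.13 CPM in OVX, and both the highest and the lowest value belonged to OVX libraries. Tgfb1, which in brain is made largely by microglia, had 2.88, 3.61 and 3.63 CPM in OVX+RJ, against 2.85, 2.94 and 3.41 CPM in OVX. OVX+RJ 1 lay within the OVX range, at a log2 fold change of 0.15 (SE 0.19, 95% interval -0.28 to 0.56). The 6 microglial markers summed to 265 to 282 CPM in OVX+RJ and 271 to 282 CPM in OVX.

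BMP ligands had no common direction, with 3 of 7 tested genes above 0 in log2 fold change and 4 below. Bmp6 had 3.43, 3.94 and 4.96 CPM in OVX+RJ, against 4.26, 6.84 and 4.66 CPM in OVX. Its edgeR log2 fold change was the lowest of the members at -0.35 (SE 0.21, 95% interval -0.80 to 0.15), and OVX 2 alone stood high. It was -0.11 without OVX 2 and -0.50 without OVX+RJ 3. By limma, which gave the interval, Bmp6 was at -0.326 and Smad6 was lowest at -0.451. Bmp3, a BMP that opposes the others, had 5.48, 4.67 and 5.76 CPM in OVX+RJ, against 7.78, 6.74 and 5.35 CPM in OVX, giving a log2 fold change of -0.31 (SE 0.17, 95% interval -0.68 to 0.089). The highest OVX+RJ library stood above the lowest OVX library. Bmp4, a ligand that drives neural stem cells towards astrocytes and quiescence, had 1.40, 0.787 and 1.25 CPM in OVX+RJ, against 1.64, 1.44 and 1.15 CPM in OVX, with OVX+RJ 2 the lowest. Bmp7 had 2.55, 2.13 and 2.13 CPM in OVX+RJ, against 2.13, 2.30 and 2.87 CPM in OVX, and the groups covered nearly the same range. Bmp8b had 3, 20 and 9 counts in OVX+RJ, against 11, 11 and 14 counts in OVX, too few for a narrow interval. Bmp2 spanned 2.26 to 3.69 CPM in OVX+RJ and 2.68 to 3.08 CPM in OVX, and Bmp5 spanned 0.650 to 1.16 CPM in OVX+RJ, against 0.567 to 1.09 CPM in OVX. The leptomeninges are known to make several BMPs. Their 7 markers summed to 34.2, 43.3 and 37.9 CPM in OVX+RJ, against 43.6, 42.3 and 39.9 CPM in OVX, and their part in these values was not tested.

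Other growth and differentiation factors also overlapped. Gdf11, a close relative of myostatin, had 26.0, 29.2 and 26.9 CPM in OVX+RJ, against 22.8, 26.4 and 26.9 CPM in OVX. OVX 1 was the lowest library and OVX 3 lay within the OVX+RJ range. Gdf10, also called Bmp3b, had 8.44, 8.61 and 7.65 CPM in OVX+RJ, against 8.55, 9.37 and 9.99 CPM in OVX, giving a log2 fold change of -0.16 (SE 0.13, 95% interval -0.45 to 0.12). Only the lowest OVX library lay inside the OVX+RJ range. Gdf9, best known as an oocyte factor, had 16 to 27 counts per OVX+RJ library and 12 to 44 per OVX library.

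Activin and inhibin subunits showed no shared movement. Inhba, whose product forms activin A and which is known to be induced by neuronal activity, had 6.24, 8.69 and 8.48 CPM in OVX+RJ, against 6.71, 9.13 and 10.2 CPM in OVX. OVX+RJ 1 and OVX 1 were the lowest of their groups and the log2 fold change was -0.15 (SE 0.18, 95% interval -0.54 to 0.27). In the same libraries 6 activity-regulated genes, Fos, Junb, Egr1, Egr2, Nr4a1 and Arc, summed to 409, 356 and 425 CPM in OVX+RJ, against 252, 278 and 270 CPM in OVX. Each was higher in every OVX+RJ library than in any OVX library, as were 4.53% of all genes tested. These 6 genes were listed with earlier results of these data known. None of the 6 passed the adjusted threshold, at a lowest adjusted p of 0.121, and whether Inhba differs from them was not tested. Inhbb, the activin B subunit gene, had 10.1, 10.5 and 8.98 CPM in OVX+RJ, against 7.34, 9.56 and 8.29 CPM in OVX, giving a log2 fold change of 0.23 (SE 0.14, 95% interval -0.067 to 0.55). OVX 2 stood above the lowest OVX+RJ library. Inha, whose product pairs with an activin subunit to form inhibins, had 6.60, 9.20 and 8.20 CPM in OVX+RJ, against 13.1, 8.60 and 8.02 CPM in OVX. OVX 1 alone stood apart, and the log2 fold change of -0.29 (SE 0.19, 95% interval -0.69 to 0.14) was -0.052 without it and -0.41 without OVX 3.

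**Figure D3:**
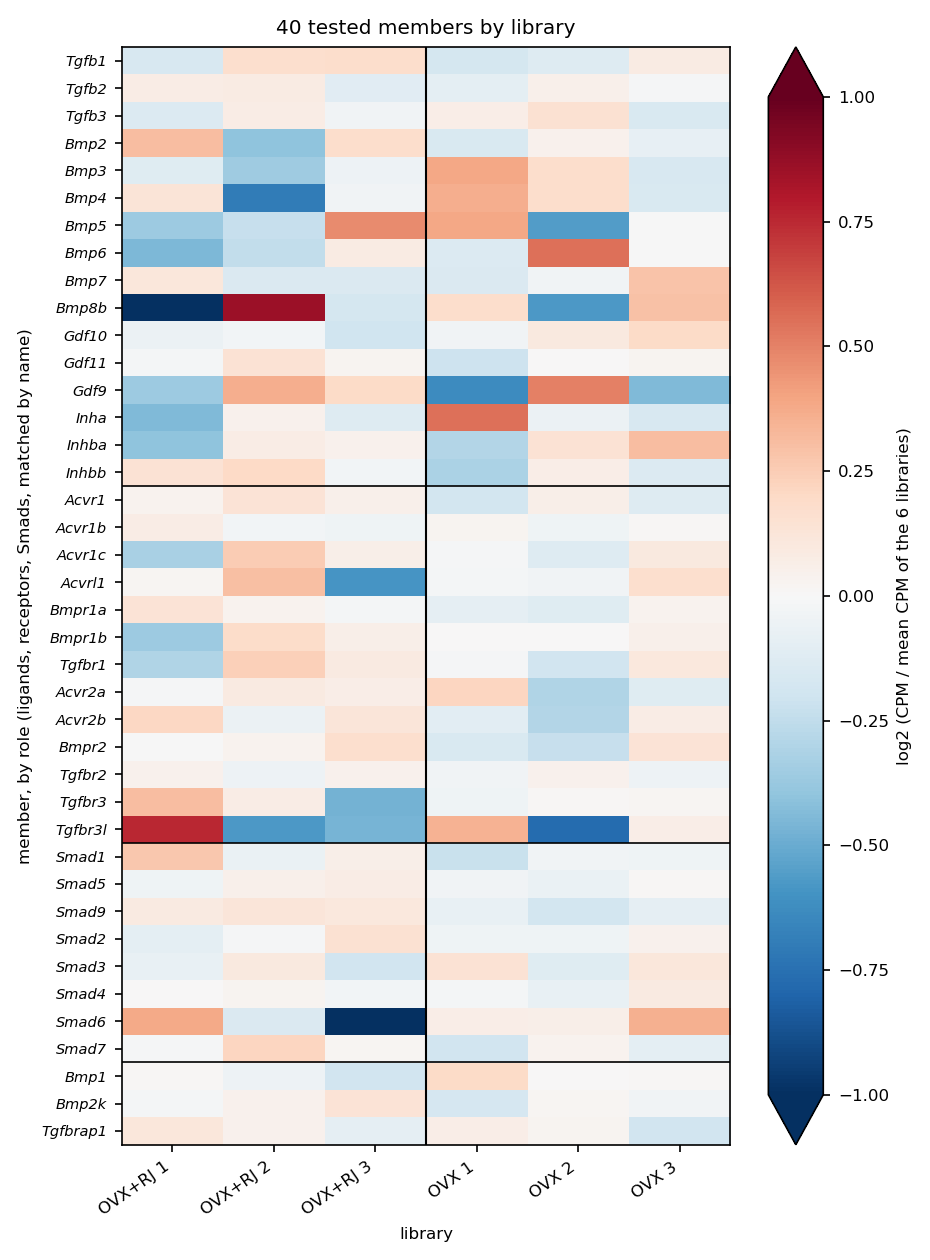
Heat map of the 40 tested members (rows, by role) in the 6 libraries (columns, OVX+RJ left of OVX), coloured by log2 of the CPM over the mean CPM of the 6 libraries, clipped at -1 and 1. Smad9 is the single row whose diets do not overlap; Bmp8b, Smad6 and Tgfbr3l vary most, at 6.52-fold, 3.05-fold and 2.87-fold between the highest and lowest library.

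No receptor gene separated the diets. Of 13 tested, 11 had a log2 fold change above 0 and 2 below, beside 49.6% above 0 over all genes tested. The values ran from -0.070 for Acvrl1 to 0.20 for Acvr2b. With a library left out, the sign turned for Acvr1b, Acvr1c, Acvrl1, Bmpr1b, Tgfbr1, Tgfbr3 and Tgfbr3l. Acvr1b had 140, 131 and 129 CPM in OVX+RJ, against 136, 129 and 134 CPM in OVX, a 1.09-fold span over all libraries. Tgfbr2, the TGF-beta type II receptor, spanned 1.07-fold, with 12.5, 11.7 and 12.5 CPM in OVX+RJ, against 11.8, 12.5 and 11.7 CPM in OVX. These were the narrowest spans of the 40 members, and in neither gene did the diets separate.

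Among the BMP receptors, Bmpr2, Bmpr1a and Acvr1 had higher means in OVX+RJ without passing the test. Bmpr2 had 205, 210 and 231 CPM in OVX+RJ, against 185, 175 and 225 CPM in OVX, giving a log2 fold change of 0.15 (SE 0.088, 95% interval -0.033 to 0.35). OVX 3 lay among the OVX+RJ libraries, and the log2 fold change was 0.27 without OVX 3 and 0.082 without OVX 2. Bmpr1a, a BMP type I receptor, had 73.5, 68.6 and 65.8 CPM in OVX+RJ, against 62.7, 61.5 and 68.6 CPM in OVX, at a log2 fold change of 0.12 (SE 0.077, 95% interval -0.050 to 0.29). OVX 3 lay inside the OVX+RJ range. Acvr1, a type I receptor for BMPs also known as ALK2, had 37.3, 39.9 and 37.7 CPM in OVX+RJ, against 32.0, 37.9 and 33.3 CPM in OVX, and OVX 2 alone kept the groups from separating. Its log2 fold change was 0.16 (SE 0.086, 95% interval -0.019 to 0.36). Bmpr1b, the other BMP type I receptor, had 19.5, 28.4 and 26.1 CPM in OVX+RJ, against 25.2, 25.2 and 26.0 CPM in OVX. OVX+RJ 1 was the lowest library there, as it was for Acvr1c and Tgfbr1.

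Among the activin and TGF-beta receptors, Acvr2a, the activin type II receptor with the most counts, had 65.7, 70.6 and 69.2 CPM in OVX+RJ, against 76.9, 53.8 and 60.9 CPM in OVX. The OVX libraries bracketed the OVX+RJ libraries on both sides. Acvr1c, also called ALK7 and a receptor for Nodal and activin B, had 21.3, 31.8 and 27.8 CPM in OVX+RJ, against 26.5, 24.4 and 28.6 CPM in OVX. Tgfbr1 spanned 27.7 to 40.2 CPM in OVX+RJ and 29.9 to 36.7 CPM in OVX, and Acvr2b 3.94 to 4.75 CPM in OVX+RJ, against 3.35 to 4.34 CPM in OVX.

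Acvrl1, the ALK1 receptor of endothelial cells, had 6.52, 7.90 and 4.27 CPM in OVX+RJ, against 6.34, 6.26 and 7.22 CPM in OVX, with the highest and lowest libraries both in OVX+RJ. Its endothelial coreceptor endoglin, Eng, had 9.61, 10.8 and 8.29 CPM in OVX+RJ, against 10.4, 10.4 and 8.32 CPM in OVX, and the groups overlapped. The 8 endothelial markers summed to 175, 181 and 162 CPM in OVX+RJ, against 208, 209 and 196 CPM in OVX. Of these markers 6 had a log2 fold change below 0 and 2, Kdr and Cdh5, above. The groups did not overlap at 3 of the 8, or 37.5%, beside 10.5% of all genes tested. Slc2a1 had the largest gap in CPM, with means of 58.7 in OVX+RJ and 75.6 in OVX. The part of these markers in the values of Acvrl1 and Eng was not tested. Of the coreceptor genes among the members, Tgfbr3l spanned 2.87-fold over the libraries and Tgfbr3 1.73-fold, beside 1.85-fold for Acvrl1. Tgfbr3, the betaglycan gene, had 23.4, 19.9 and 13.6 CPM in OVX+RJ, against 18.3, 19.0 and 19.1 CPM in OVX. The OVX+RJ libraries lay on both sides of the close OVX values. Tgfbr3l had 6.96, 2.77 and 2.99 CPM in OVX+RJ, against 5.24, 2.42 and 4.32 CPM in OVX, and replicate 1 was the highest of each group.

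The Smads of the BMP branch gave the only separation of the diets among the members. Smad9, also called Smad8, had 14.0, 14.3 and 14.2 CPM in OVX+RJ, against 12.5, 11.6 and 12.4 CPM in OVX. OVX+RJ libraries averaged 14.1 ± 0.128 CPM (SD, n = 3), against 12.2 ± 0.491 CPM for OVX libraries (SD, n = 3). All 3 OVX+RJ libraries stood above all 3 OVX libraries, by a log2 fold change of 0.23 (SE 0.10, 95% interval -0.001 to 0.45, adjusted p = 0.986). Values of this kind, separated with OVX+RJ higher, were found at 4.53% of all genes tested. Leaving out each library in turn gave Smad9 values of 0.19 to 0.25 on the log2 scale. Smad1 had 22.7, 18.0 and 19.6 CPM in OVX+RJ, against 16.2, 18.4 and 18.3 CPM in OVX, giving a log2 fold change of 0.20 (SE 0.12, 95% interval -0.061 to 0.45). OVX+RJ 1 was the highest library, and the log2 fold change was 0.091 without it and 0.28 without OVX+RJ 2. Smad5 had 40.7, 43.5 and 44.1 CPM in OVX+RJ, against 41.0, 40.1 and 42.4 CPM in OVX, a 1.10-fold span over the 6 libraries, and OVX+RJ 1 lay within the OVX range.

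The promoters of these 3 Smads and of Bmpr2 are shown because Smad9 was the single member with separated groups, Smad1 and Smad5 are its partners in the BMP branch and Bmpr2 is the receptor upstream of them. Each run holds the 250 bases before the first start listed by RefSeq on GRCm38.p6, in the direction of the gene. Smad9 lies at chr3:54755332-54755581 on the plus strand, Smad1 at chr8:79399429-79399678 on the minus strand, Smad5 at chr13:56702760-56703009 on the plus strand and Bmpr2 at chr1:59764029-59764278 on the plus strand. Capitals mark GGCGCC, a GC-rich motif that BMP Smads can bind and that reads the same on both strands.
Smad9: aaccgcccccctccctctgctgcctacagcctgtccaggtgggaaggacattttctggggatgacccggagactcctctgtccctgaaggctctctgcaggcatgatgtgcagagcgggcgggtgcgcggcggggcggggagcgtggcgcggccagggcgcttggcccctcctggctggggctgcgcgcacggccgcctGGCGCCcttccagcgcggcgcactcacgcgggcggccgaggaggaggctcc
Smad1: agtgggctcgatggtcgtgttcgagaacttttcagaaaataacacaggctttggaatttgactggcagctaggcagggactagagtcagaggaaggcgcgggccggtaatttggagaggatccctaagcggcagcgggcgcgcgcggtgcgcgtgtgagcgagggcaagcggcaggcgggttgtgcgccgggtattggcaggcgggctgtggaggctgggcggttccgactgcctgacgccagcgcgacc
Smad5: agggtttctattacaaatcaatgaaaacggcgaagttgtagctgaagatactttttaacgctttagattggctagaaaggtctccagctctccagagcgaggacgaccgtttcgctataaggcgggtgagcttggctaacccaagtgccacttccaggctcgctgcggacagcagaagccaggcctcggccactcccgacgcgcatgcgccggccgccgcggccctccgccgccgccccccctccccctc
Bmpr2: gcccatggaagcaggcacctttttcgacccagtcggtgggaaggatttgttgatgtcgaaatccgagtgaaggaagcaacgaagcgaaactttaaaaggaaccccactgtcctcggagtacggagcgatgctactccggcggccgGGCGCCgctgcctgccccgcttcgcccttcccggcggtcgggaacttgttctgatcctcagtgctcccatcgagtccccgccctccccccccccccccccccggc
The motif begins 51 bases before the start in Smad9 and 105 bases before it in Bmpr2, and these letters are not in the windows of Smad1 and Smad5. A second start of the 3 listed for Smad5 has the motif 19 bases before it. Of the 49 members 36 matched the promoter table, and the first-listed window of 6 of them, 16.7%, held the motif: Bmp2k, Bmpr1a, Bmpr2, Gdf1, Smad9 and Tgfbr1. Of all 32851 promoter windows of this length, with every listed start of a gene counted, 9.59% held it. The member share takes a single window per gene, so the shares are of unlike units and were not tested against each other. The Smad palindrome GTCTAGAC and the cyclic AMP response element TGACGTCA, both also palindromes, were in 0 of the 36, and in 0.167% and 1.55% of all windows.

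**Figure D4:**
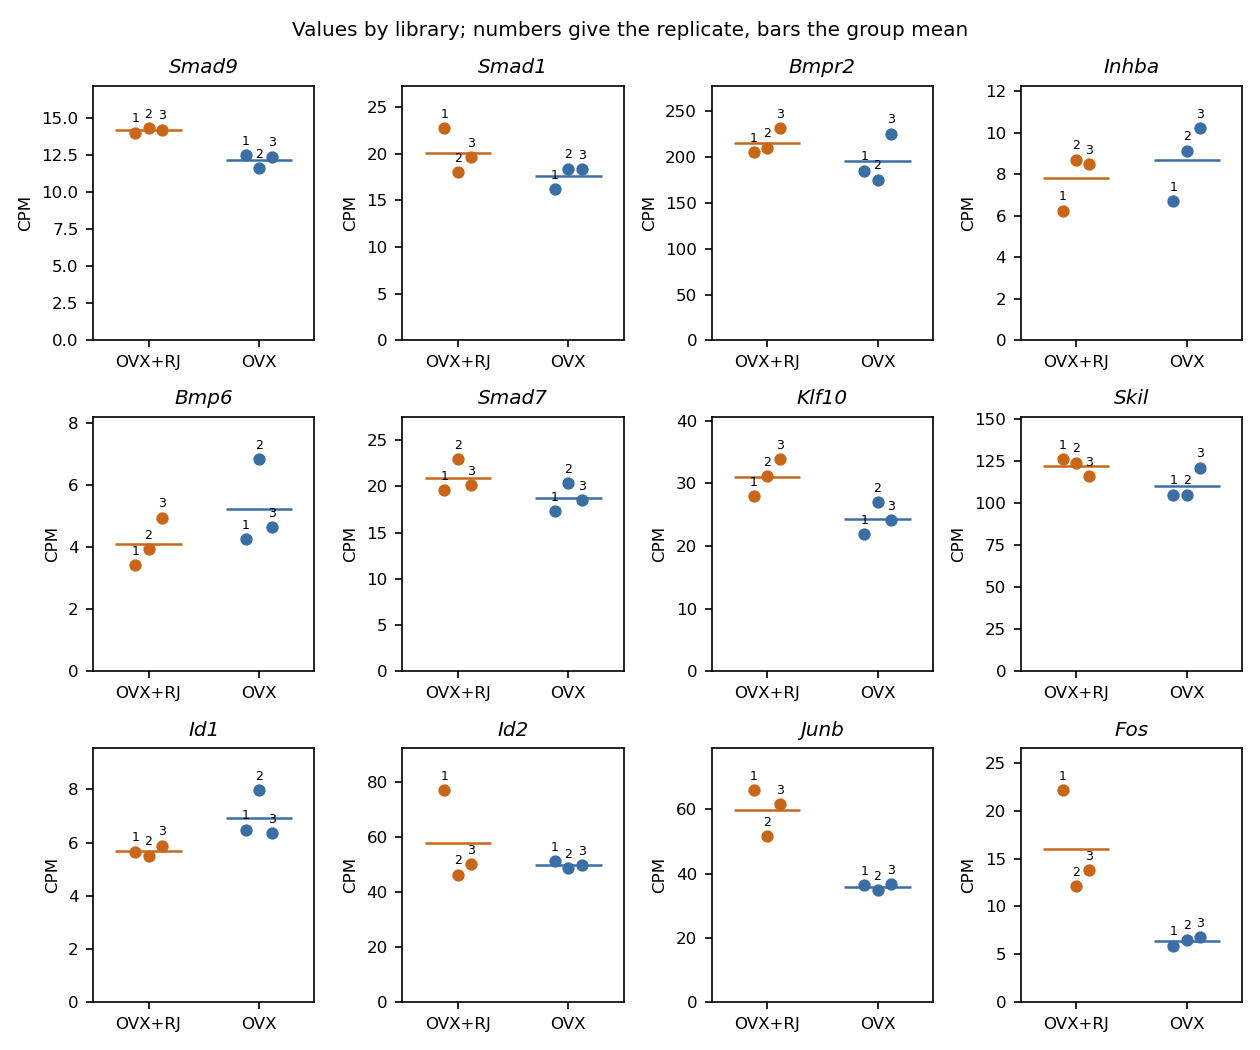
CPM by library (points, numbered by replicate) with the mean of each group (bar), OVX+RJ in orange left of OVX in blue, for 6 members, 4 other pathway genes and the activity-regulated Junb and Fos; y axes start at 0 and differ between panels. The diets separate for Smad9, Klf10, Id1, Junb and Fos and overlap for the others shown.

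Smads of the TGF-beta and activin branch did not separate. Smad3 had 72.8, 82.0 and 67.1 CPM in OVX+RJ, against 84.8, 70.7 and 82.8 CPM in OVX, giving a log2 fold change of -0.091 (SE 0.091, 95% interval -0.29 to 0.11). Smad2 had 31.9, 33.8 and 37.9 CPM in OVX+RJ, against 33.1, 33.1 and 35.2 CPM in OVX, so that its OVX libraries lay inside the OVX+RJ range. The common partner Smad4 had 47.4, 48.3 and 46.4 CPM in OVX+RJ, against 46.7, 45.1 and 50.3 CPM in OVX, at a log2 fold change of 0.012 (SE 0.074). The inhibitory Smads are themselves induced by the pathway. Smad7 had 19.6, 22.9 and 20.1 CPM in OVX+RJ, against 17.3, 20.3 and 18.5 CPM in OVX, giving a log2 fold change of 0.17 (SE 0.10, 95% interval -0.058 to 0.40), and OVX 2 stood above 2 of the OVX+RJ libraries. Smad6 had 52, 37 and 16 counts in OVX+RJ, against 38, 63 and 54 counts in OVX, or 1.35, 0.940 and 0.443 CPM in OVX+RJ, against 1.09, 1.08 and 1.33 CPM in OVX. OVX+RJ 3 was the lowest library for Smad6, and the log2 fold change of -0.33 was -0.00715 without it and -0.75 without OVX+RJ 1.

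The symbol pattern also took in 3 genes that are no ligand, receptor or Smad. Bmp1, which encodes a procollagen protease that also cleaves the BMP antagonist chordin, had 46.8, 44.8 and 40.7 CPM in OVX+RJ, against 52.9, 46.6 and 46.7 CPM in OVX, giving a log2 fold change of -0.13 (SE 0.086, 95% interval -0.32 to 0.054). OVX+RJ 1 stood just above the lowest OVX libraries. Tgfbrap1, a receptor-associated protein gene that also acts in endosome fusion, spanned 47.6 to 54.8 CPM in OVX+RJ and 44.3 to 53.0 CPM in OVX. Bmp2k, which encodes a BMP2-inducible kinase, spanned 19.9 to 22.2 CPM in OVX+RJ and 18.0 to 20.5 CPM in OVX.

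The 9 members below the filter were Bmp8a, Bmp15, Gdf1, Gdf5, Gdf6, Gdf7, Gdf15, Inhbc and Inhbe. Except for Gdf1, none had more than 12 counts in any library. Inhbc had 2 counts in OVX+RJ 2 and 0 in the other 5 libraries, and Inhbe had 4 and 2 counts in OVX 1 and OVX 3 and 0 elsewhere. Gdf15, known as a stress-induced cytokine gene, had 0, 6 and 0 counts in OVX+RJ, against 4, 2 and 6 counts in OVX. Gdf1, singled out after its values were seen, had 2, 12 and 33 counts in OVX+RJ, against 3, 3 and 3 counts in OVX. OVX+RJ 2 and 3 stood above the others. OVX+RJ 1 had the fewest counts, but at 0.052 CPM it lay beside OVX 2 at 0.0516 CPM. When every gene with a count was tested, its log2 fold change was 2.56 (adjusted p = 0.869, edgeR), a fitted value that depends on the prior count at counts this low. Gdf1 can share a transcript with Cers1, a ceramide synthase gene, so reads may be split between them. Cers1 had 2504, 3012 and 2723 counts in OVX+RJ, against 2651, 4883 and 2970 counts in OVX. Choroid plexus markers summed to 26.7, 46.2 and 54.4 CPM in OVX+RJ, against 25.5, 36.0 and 30.8 CPM in OVX, so that OVX+RJ 2 and 3 were highest there as well. The log2 fold change was above 0 for 7 of 7 of these markers, but they did not rise alike. It was 0.001 for Kl, 0.122 for Kcne2 and 0.139 for Folr1. Larger values were those of F5 at 0.723, Otx2 at 1.287, Ttr at 1.32 and Clic6 at 1.612. Kl averaged 22.2 CPM over the OVX+RJ libraries, against 22.3 CPM over the OVX libraries. Each marker had counts in every library except Otx2, which had 0 in OVX 1. The part of these markers in the Gdf1 counts was not tested.

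Genes of the same pathways outside the symbol pattern were taken from 4 lists of 81 genes in all, of which 74 were tested. None passed the adjusted threshold, and 3 had an unadjusted p under 0.05, each higher in OVX+RJ. A log2 fold change above 0 was found at 43 of the 74, beside 49.6% of all genes tested. That share of unadjusted p under 0.05, 4.05%, equals the share over all genes tested. The groups did not overlap at 6 of them, or 8.11%, beside 10.5% of all genes tested.

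Among 24 tested secreted antagonists and latency proteins, 12 had a log2 fold change above 0 and 12 below. Noggin, Nog, a BMP trap that permits neurogenesis, had 4.57, 3.10 and 4.71 CPM in OVX+RJ, against 4.09, 3.77 and 2.50 CPM in OVX. Follistatin, Fst, which binds activin, had 1.46, 1.47 and 0.693 CPM in OVX+RJ, against 1.81, 1.44 and 1.72 CPM in OVX. Dand5, a Nodal and BMP antagonist gene, had 5.82, 7.67 and 6.21 CPM in OVX+RJ, against 7.72, 8.24 and 8.34 CPM in OVX. Its groups did not overlap, at a log2 fold change of -0.29 (SE 0.14, 95% interval -0.62 to 0.019). The log2 fold changes of Crim1, Ltbp4 and Nog were 0.11, -0.13 and 0.27, and none of these genes separated the diets.

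Of 10 tested coreceptors and ligands with other names, 6 had a log2 fold change above 0 and 4 below. Rgmb, a BMP coreceptor gene, had 87.5, 94.6 and 89.2 CPM in OVX+RJ, against 85.9, 85.9 and 86.4 CPM in OVX. The groups did not overlap, and the log2 fold change was 0.081 (SE 0.060, 95% interval -0.052 to 0.21). Bambi, a pseudoreceptor that blocks signalling, had 5.79, 5.54 and 4.41 CPM in OVX+RJ, against 4.32, 4.95 and 4.64 CPM in OVX. Amhr2, Nodal and Tdgf1 were near the filter, with log2 fold changes of 0.70, -1.03 and -0.28 and overlapping groups, and Nodal was at 0 in OVX+RJ 1. For Nodal the log2 fold change was -0.45 without OVX+RJ 1, -2.27 without OVX+RJ 2 and -1.94 by limma-voom.

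Of 21 tested Smad partners and regulators, 15 had a log2 fold change above 0 and 6 below, beside 49.6% above 0 over all genes tested. Tgif2, a repressor that binds Smads, had 2.13, 1.63 and 0.721 CPM in OVX+RJ, against 0.346, 1.01 and 0.393 CPM in OVX. OVX 2 stood above the lowest OVX+RJ library, and the log2 fold change was 1.32 (SE 0.48, 95% interval 0.26 to 2.38, adjusted p = 0.986). It ran from 0.96 without OVX+RJ 1 to 2.02 without OVX 2, and its unadjusted p was no longer under 0.05 without OVX+RJ 1, OVX 1 or OVX 3. Skil, a Smad corepressor gene induced by TGF-beta, had 126, 124 and 116 CPM in OVX+RJ, against 105, 105 and 121 CPM in OVX, giving a log2 fold change of 0.16 (SE 0.075, 95% interval -0.006 to 0.33). OVX 3 lay among the OVX+RJ libraries. Zfyve9, which encodes the Smad anchor SARA, had 103, 94.1 and 95.8 CPM in OVX+RJ, against 90.2, 89.3 and 91.8 CPM in OVX. Its groups did not overlap, at a log2 fold change of 0.12 (SE 0.066, 95% interval -0.025 to 0.26). Hgs and Tab1 had log2 fold changes of -0.054 and -0.086 and overlapping groups.

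Transcriptional targets had no common direction, with 10 of 19 tested genes above 0 and 9 below. Klf10, an early TGF-beta-inducible gene, had 27.9, 31.1 and 33.8 CPM in OVX+RJ, against 21.9, 27.0 and 24.1 CPM in OVX. All OVX+RJ libraries were above all OVX libraries, at a log2 fold change of 0.35 (SE 0.10, 95% interval 0.13 to 0.58, adjusted p = 0.986). Id1, a direct BMP target, was lower in each OVX+RJ library, at 5.66, 5.51 and 5.88 CPM in OVX+RJ, against 6.48, 7.96 and 6.36 CPM in OVX, giving a log2 fold change of -0.28 (SE 0.15, 95% interval -0.59 to 0.062). Tsc22d1, a TGF-beta-stimulated gene, had 353, 359 and 362 CPM in OVX+RJ, against 376, 393 and 388 CPM in OVX, giving a log2 fold change of -0.096 (SE 0.051, 95% interval -0.21 to 0.016).

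The other Id genes overlapped. Id2 had 77.1, 46.4 and 50.3 CPM in OVX+RJ, against 51.4, 48.8 and 49.8 CPM in OVX, and OVX+RJ 1 alone stood high. Id3 had 21.0, 16.4 and 14.7 CPM in OVX+RJ, against 17.2, 17.6 and 15.2 CPM in OVX. Id4 had 79.7, 95.5 and 84.3 CPM in OVX+RJ, against 93.3, 87.2 and 97.0 CPM in OVX. The matricellular gene Ccn1 had 13.5, 2.06 and 3.80 CPM in OVX+RJ, against 2.36, 2.82 and 2.55 CPM in OVX. Its log2 fold change of 1.35 (SE 0.51, 95% interval -0.24 to 2.01 around limma's estimate of 0.88, adjusted p = 0.986) rested on OVX+RJ 1 and was 0.18 without that library and 1.77 without OVX+RJ 2. Fn1, the fibronectin gene, spanned 28.0 to 41.0 CPM in OVX+RJ and 39.0 to 52.2 CPM in OVX, at a log2 fold change of -0.29 (SE 0.14, 95% interval -0.62 to 0.016).

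The remaining cell type markers are given for reference. Mural cell markers summed to 154 to 161 CPM in OVX+RJ and 172 to 180 CPM in OVX, without overlap. One by one, the groups did not overlap at 3 of 6, or 50%, beside 10.5% of all genes tested. Rgs5, the largest part of the sum, overlapped. The log2 fold change was below 0 at 5 of these markers and 0.184 for Pdgfrb. Astrocyte markers summed to 1310 to 1370 CPM in OVX+RJ, against 1400 to 1420 CPM in OVX, also without overlap. Taken singly, the groups overlapped at each of the 5 astrocyte markers. The log2 fold change was 0.006 for Gfap and below 0 for the other 4. Oligodendrocyte markers summed to 2990 to 3970 CPM in OVX+RJ and 2460 to 4050 CPM in OVX, and the 2 markers of their precursors to 70.0 to 81.7 CPM in OVX+RJ, against 72.1 to 83.2 CPM in OVX. The part of these lists in the values of the signalling genes was not tested.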

How the data were processed

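Hippocampal poly(A) RNA of 3 OVX+RJ and 3 OVX mice, called biological replicates in the labels, was sequenced. Per the submitters' processing notes, the tools were StringTie 2.2.1, HISAT2 2.2.1, fastp 0.23.4 and bcl2fastq 2.19, named without roles, and the build GRCm39. The authors deposited 1 table of estimated counts per gene, not normalized between libraries, and the few values that were not whole (51 rows, no member) were rounded. Strand setting and annotation: not given in the sources used here. Reads of overlapping genes may therefore be mixed.

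Counts were tested with edgeR 4.0.16 in R 4.3.3 (TMM scaling, filterByExpr, quasi-likelihood test, Benjamini-Hochberg adjustment over 18629 genes, threshold 0.05). Standard errors and 95% intervals came from limma 3.58.1 on log2 CPM (prior count 2). CPM was taken over all rows. An exact permutation test of 3 against 3 libraries cannot go below 0.1. The edgeR step was also run on simulated counts, with planted differences larger than the member estimates and a spread set by expression level only. That run does not measure power for differences of the size seen here. Replicates of a group differed beyond sampling noise (chi-square per degree of freedom 9.82 to 17.9).

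Exon lengths came from GENCODE M21 and promoters from RefSeq, both on GRCm38, and no coordinates were converted. Members and lists were chosen with earlier results of these data known. Named genes were members with an unadjusted p under 0.05 or separated groups, the 2 with the most counts in each role and a set list, and in each pathway list the 2 with the lowest p in each direction and a set list; other genes are named where they help. Alternatives were DESeq2 1.42.0, limma-voom, other scalings and filters, robust fitting, a replicate block and leaving out each library.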

Additional observations from a re-analysis of the deposited data

How the results depend on the processing

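None of the members passed the adjusted threshold under any of the 15 alternative settings. Of those tested, 23 of 40 kept the sign of their log2 fold change under all 15, and Smad6 kept it under the 14 that tested it. Over all genes, DESeq2 called 10 higher and 3 lower in OVX+RJ, robust fitting 2 and 1, and the replicate block 1 and 0, against 0 in the fit reported; leaving out 1 library called 0 to 7 higher and 0 to 1 lower. Members with an unadjusted p under 0.05 numbered 1 by limma-voom (Smad9), 1 with a mean of at least 50 counts (Smad9), 1 without a filter (Gdf1) and 0 to 3 with a library left out. Those were Gdf1, Bmp1 at -0.19 without OVX+RJ 1, Smad1 at 0.28 without OVX+RJ 2, Acvr2a at 0.26 without OVX 1, Acvr1 at 0.24 without OVX 2, and Bmpr2 at 0.27 and Bmp3 at -0.43 without OVX 3. The median log2 fold change of members ran from 0.0155 to 0.0746, and other pathway genes with an unadjusted p under 0.05 numbered 1 to 9. The cause of these differences was not tested. Bmp8b reversed to -0.00626 with DESeq2, -0.229 with limma-voom, -0.00694 without a filter and -0.116 under the replicate block, and Tgfbr3 to -0.00848 with limma-voom and -0.00601 under the block. With a library left out, the sign turned for Acvr1b (-0.0357 to 0.0463), Acvr1c (-0.0943 to 0.172), Acvrl1 (-0.268 to 0.143), Bmp2 (-0.0246 to 0.322), Bmp5 (-0.255 to 0.275), Bmp7 (-0.191 to 0.0503), Bmp8b (-0.757 to 0.447), Bmpr1b (-0.145 to 0.0977), Eng (-0.104 to 0.087), Gdf9 (-0.0254 to 0.631), Id2 (-0.049 to 0.372), Id3 (-0.0953 to 0.186), Smad2 (-0.0238 to 0.085), Smad4 (-0.0202 to 0.0635), Tab1 (-0.204 to 0.0137), Tgfb3 (-0.126 to 0.0252), Tgfbr1 (-0.0493 to 0.194), Tgfbr3 (-0.165 to 0.224), Tgfbr3l (-0.457 to 0.358) and Tgfbrap1 (-0.00452 to 0.126). Same-numbered libraries deviated with correlations of 0.046, -0.00238 and 0.0031, so the replicate numbers were taken as names, not as pairs. The alternative for values that are not counts was not needed. Few counts limit Bmp8b, Gdf9, Smad6 and the 9 genes below the filter.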
